A study of Rattus with 6 samples.

Results

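The genes of the rat major histocompatibility complex (MHC), whose symbols start with RT1-, were examined with the genes that load peptides onto MHC molecules and the transactivators of both MHC classes. Members were chosen by symbol: every RT1- gene of the count table, and B2m, Nlrc5, Ciita, Cd74, Tap1, Tap2, Tapbp, Tapbpl and Erap1. This gave 46 of the 21378 genes in the table. By the description in the files, 30 RT1 genes were class I and 7 were class II, and 9 members were loading or regulator genes. All 37 RT1 genes lay on chromosome 20 per the files.

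MHC class I molecules pair a heavy chain with beta-2 microglobulin and display peptides from inside the cell to CD8 T cells and natural killer cells. The peptides come mostly from the proteasome, are carried into the endoplasmic reticulum by the TAP transporter, and are fitted there with the help of tapasin. MHC class II molecules are alpha and beta chain pairs that display peptides from endosomes to CD4 T cells. Fibroblasts carry class I as most nucleated cells do, while class II is the province of macrophages, dendritic cells and B cells unless interferon-gamma induces it elsewhere.

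Poly(A) RNA was sequenced from rat cardiac fibroblasts obtained commercially and grown in culture. The siNONO group (3 libraries) had received an siRNA against Nono by lipofection, and the siCtrl group (3 libraries) served as its control. The labels name the control both as siCtrl and as cells with an empty vector, so what the control cells received is not settled here. They give a harvest at 48 h for RT-qPCR and western blotting and no time for sequencing, and no strain, age or sex. The NONO protein binds RNA and DNA in the nucleus and is part of paraspeckles. The labels do not say whether replicates were separate cultures, so the spread behind each p-value is that between these libraries and may be technical.

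Nono was at 69.9, 76.1 and 73.6 CPM (counts scaled to library size, here after TMM scaling) in siNONO replicates 1, 2 and 3, against 237, 233 and 247 CPM in siCtrl replicates 1, 2 and 3. Its log2 fold change was -1.70 ± 0.05 (SE; edgeR adjusted p = 4.57e-11). Total counts were 29692746 to 33365588 per library in siNONO and 27792357 to 32869992 in siCtrl. The 9 fibroblast markers summed to 33526 to 34406 CPM in siNONO libraries and 34397 to 36985 CPM in siCtrl libraries, and 0 were raised and 4 lowered (0 raised at an unadjusted p of 0.05, by DESeq2 or by limma-voom). Lowered were Lum (-0.91; 18.9 and 35.6 CPM in siNONO and siCtrl), Dcn (-0.32), Tcf21 (-0.22) and Vim (-0.19), while Col1a1 did not pass (14760 ± 201 CPM in siNONO and 15859 ± 560 CPM in siCtrl; SD, n = 3 each). Of 4 tested mural cell markers 3 were lowered, Myh11 (-0.88), Cspg4 (-0.58) and Kcnj8 (-0.28), and Des was raised (0.36). Of 2 tested cardiomyocyte markers Tnnt2 was lowered (-0.45; 112 and 152 CPM in siNONO and siCtrl). Tnni3 did not pass (0.274 and 0.391 CPM in siNONO and siCtrl), and Myh6, not tested, was at 0.0401 and 0.0490 CPM. Over all genes tested 16.2% were raised and 15.9% lowered. The part of these marker changes in the members' changes was not tested. Macrophage markers were also present: Cd68 had 138 ± 3.92 and 142 ± 5.96 CPM, and Csf1r 29.8 ± 1.48 and 36.7 ± 2.07 CPM, in siNONO and siCtrl. In such bulk samples, fewer cells of a type and less RNA per cell cannot be told apart.

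Of the 46 members, 33 had enough reads to be tested (filterByExpr). Each tested member had at least 0.563 CPM in every library, above the filter's cutoff of 0.320 CPM, so no member was tested on the strength of 1 group alone. After knockdown 21 of the 33 were raised and 1 was lowered. A gene is called raised or lowered where its Benjamini-Hochberg adjusted p from the quasi-likelihood test of edgeR is under 0.05. Over all 14412 genes tested, 16.2% were raised and 15.9% lowered, 32.1% in all. The siNONO values lay wholly above the siCtrl values for 17 members (51.5%; 22.9% of all genes tested) and wholly below for 1 (22.1% of all genes tested). The rises were small: 6 members were raised by at least 1.5-fold, as were 2.86% of all genes tested, and the median log2 fold change of the 33 was 0.36, against 0.00 for all genes. Raised were 15 of 23 tested class I genes, 0 of 2 class II genes and 6 of 8 loading and regulator genes.

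**Figure D1:**
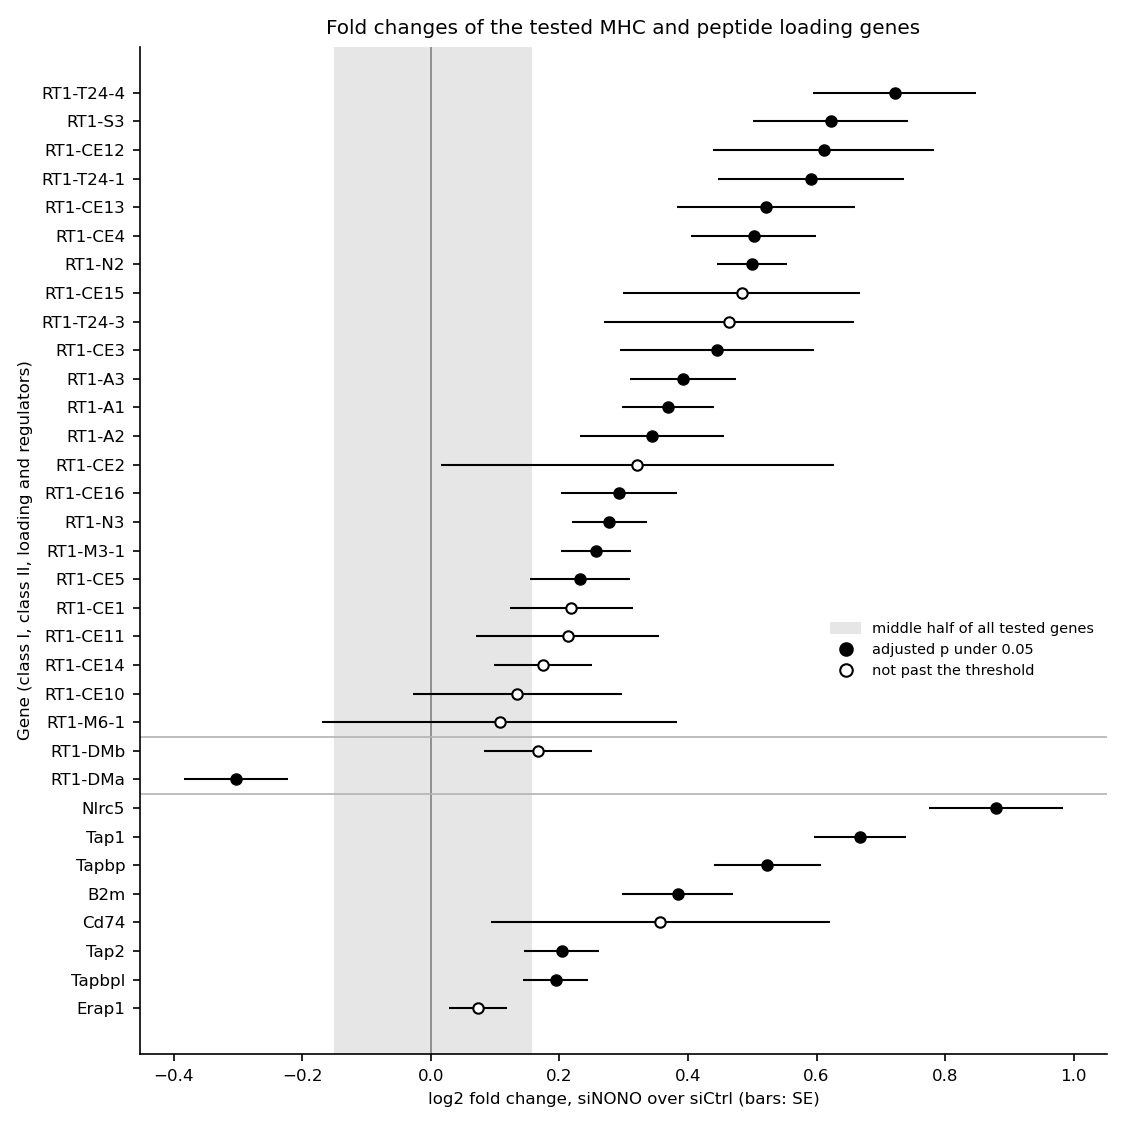
Log2 fold change of siNONO over siCtrl with its standard error for the 33 tested members, grouped into class I, class II, and loading and regulator genes. Filled points passed the adjusted p threshold of 0.05, and the grey band spans the middle 50% of all genes tested. The 23 class I genes lie between 0.11 and 0.72, RT1-DMa is the one filled point left of 0, and Nlrc5 lies farthest to the right at 0.88.

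The class I heavy chains are encoded by many similar genes. RT1-A1 and RT1-A2 are the class Ia genes by their description, the classical type that presents to CD8 T cells. Of the others, 8 are described as class Ib, the non-classical type. Both class Ia genes and all 4 tested class Ib genes were raised. So were 9 of 17 tested genes described only as class I, against 16.2% of all genes tested. By DESeq2 these counts were 1, 4 and 6, against 13.2% of all genes tested. Reads from near-identical copies can be split or dropped in ways the sources used here do not give, so the level of a single RT1 class I gene is uncertain. In RefSeq's annotation of the assembly GRCr8, a later build than the authors' mRatBN7.2, all 46 members were matched by symbol. There, 12 RT1 members overlap another RT1 member on the chromosome, among them RT1-CE4 with RT1-CE5, RT1-CE12 with RT1-CE13 and RT1-CE14, and RT1-T24-3 with RT1-T24-4.

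A sum over all class I genes depends less on how reads were split among them. That sum was 1207, 1278 and 1288 CPM in siNONO replicates 1, 2 and 3, against 1162, 875 and 817 CPM in siCtrl replicates 1, 2 and 3. Every siNONO library was above every siCtrl library, but siCtrl replicate 1 came close to siNONO replicate 1. The means were 1258 ± 44.1 CPM in siNONO and 951.5 ± 185 CPM in siCtrl (SD, n = 3 each), a ratio of 1.32. The ratio was 1.49 without siCtrl replicate 1, 1.27 without siCtrl replicate 2 and 1.23 without siCtrl replicate 3. The relative spread was 3.5% of the mean in siNONO and 19.4% in siCtrl.

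The control libraries differed from each other in the same order for most class I genes. Of the 23 tested class I genes, siCtrl replicate 1 was the highest control for 20 and siCtrl replicate 3 the lowest for 16. In 10 of the 23 genes siCtrl replicate 1 reached or passed the lowest siNONO library, which siCtrl replicate 2 did for 3 genes and siCtrl replicate 3 for 2. Without siCtrl replicate 1, 18 class I genes and 25 members were raised (15.3% of all genes tested in that fit). Without siCtrl replicate 3, 11 class I genes and 15 members were raised (13.0% of all genes tested in that fit). A robust quasi-likelihood fit, which limits the pull of outlying genes on the shared spread, raised 9 class I genes and 15 members, with 16.2% of all genes raised. DESeq2 raised 11 class I genes and 17 members (13.2% of all genes), and limma-voom 17 and 23 (16.2% of all genes). In none of these fits, nor by DESeq2 or limma-voom, was a class I gene lowered, and none had an unadjusted p under 0.05 in that direction in the edgeR test.

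**Figure D2:**
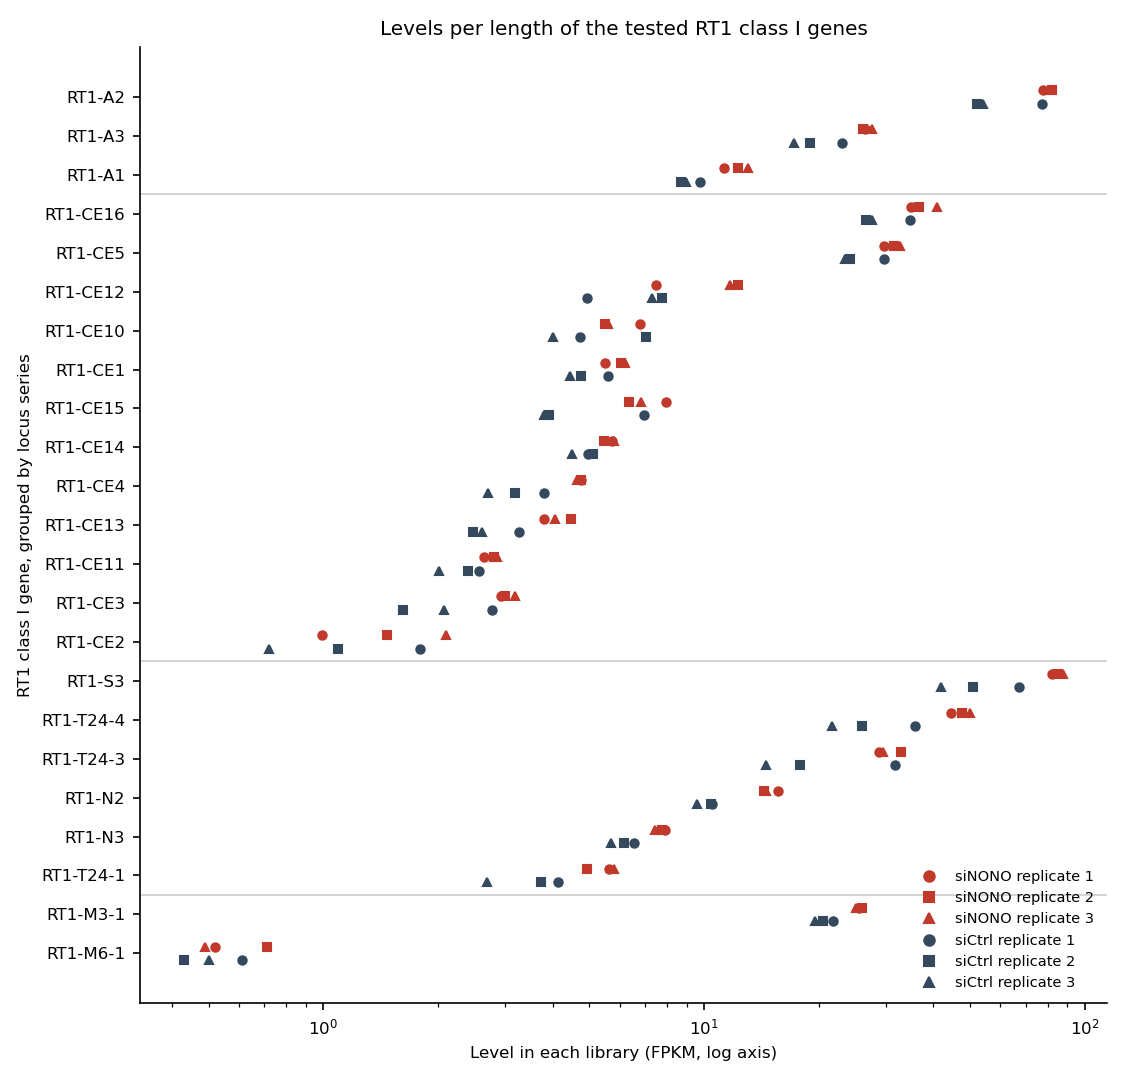
Level of each tested class I gene in each library, in FPKM (per length and library size, as deposited) on a log axis, with siNONO in red above siCtrl in dark blue. Genes are grouped by locus series (A, CE, N with S, O and T24, and M) and ordered by their siCtrl mean. The circle of siCtrl replicate 1 is often the rightmost control point and in RT1-A2 lies beside the siNONO points.

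Compared per length, RT1-S3 and RT1-A2 were the most abundant class I genes in both groups. RT1-S3 had 85.0 ± 2.82 FPKM in siNONO and 53.4 ± 13.0 FPKM in siCtrl, and RT1-A2 had 80.5 ± 2.27 FPKM in siNONO and 61.2 ± 13.9 FPKM in siCtrl (SD, n = 3 each). The FPKM of RT1-S3 relative to RT1-A2 was 1.05, 1.04 and 1.07 in siNONO replicates 1, 2 and 3, against 0.873, 0.972 and 0.774 in siCtrl replicates 1, 2 and 3. RT1-S3 thus exceeded RT1-A2 in each siNONO library and lay below it in each siCtrl library. By counts, RT1-CE5 held the largest share of class I reads, 23.0% in siNONO and 25.9% in siCtrl, but over an implied length of 9.38 kb, against 2.6 kb for RT1-A2. RT1-CE5, RT1-S3 and RT1-A2 together made up 59.9% of class I counts in siNONO and 60.6% in siCtrl.

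All 3 tested genes of the A series were raised, against 16.2% of all genes tested. RT1-A1 had 22.7, 25.1 and 26.4 CPM in siNONO replicates 1, 2 and 3, against 20.9, 18.01 and 18.7 CPM in siCtrl replicates 1, 2 and 3. The groups did not overlap, and the log2 fold change was 0.37 ± 0.07 (edgeR adjusted p = 0.00139). RT1-A3 was at 47.7, 47.6 and 49.9 CPM in siNONO against 43.7, 35.1 and 32.2 CPM in siCtrl, again without overlap (0.39 ± 0.08; edgeR adjusted p = 0.00245). RT1-A2 was at 198, 211 and 208 CPM in siNONO against 207, 137 and 142 CPM in siCtrl, so that siCtrl replicate 1 lay among the siNONO libraries. Its log2 fold change of 0.34 ± 0.11 passed (edgeR adjusted p = 0.0304) with all libraries and without siCtrl replicate 1 (0.56; adjusted p = 9.71e-08). It did not pass without any one of the other 5 libraries (0.24 to 0.37; adjusted p 0.0635 to 0.122), nor by DESeq2 (adjusted p = 0.226) or the robust fit (adjusted p = 0.253).

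Of the 6 tested N, S, O and T24 genes 5 were raised, against 16.2% of all genes tested, with a median log2 fold change of 0.55. RT1-T24-4 was at 79.4, 85.9 and 89.5 CPM in siNONO replicates 1, 2 and 3, against 67.5, 47.7 and 40.1 CPM in siCtrl. This was the largest class I rise, 0.72 ± 0.13 on the log2 scale (edgeR adjusted p = 0.000652), with no overlap between groups. RT1-S3, whose RefSeq synonym H2-T23 is the mouse Qa-1 gene, a class Ib molecule known in mouse for presenting leader peptides to a natural killer cell receptor, was at 249, 261 and 266 CPM in siNONO. In siCtrl replicates 1, 2 and 3 it was at 216, 158 and 131 CPM, below every siNONO library (0.62 ± 0.12; edgeR adjusted p = 0.00129). The robust fit did not call RT1-T24-4 (adjusted p = 0.0716) or RT1-S3 (adjusted p = 0.0914).

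RT1-T24-1 was at 6.42, 5.69 and 6.62 CPM in siNONO against 4.99, 4.36 and 3.18 CPM in siCtrl, without overlap (0.59 ± 0.14; edgeR adjusted p = 0.00637). RT1-N2 was tight within both groups, at 47.7, 44.3 and 44.3 CPM in siNONO and 33.7, 32.6 and 30.1 CPM in siCtrl, and had the lowest adjusted p of the class I genes (0.50 ± 0.05; edgeR adjusted p = 1.11e-05). RT1-N3 rose by 0.28 ± 0.06 on the log2 scale with no overlap (edgeR adjusted p = 0.00246). RT1-T24-3, which overlaps RT1-T24-4 in RefSeq's annotation, did not pass (0.46 ± 0.20; edgeR adjusted p = 0.0858). Its controls ran from 39.6 CPM in replicate 3 to 87.9 CPM in replicate 1, which was above the highest siNONO library (87.6 CPM), and without siCtrl replicate 1 it was raised (0.88; adjusted p = 3.28e-07). RT1-T24-3 was also called by limma-voom (adjusted p = 0.0343), with the replicate block (0.0363), total library size (0.0488) and no filter (1.47e-17). DESeq2 (adjusted p = 0.367) and the robust fit (adjusted p = 0.388) did not call it. With no filter, edgeR gave far smaller adjusted p at nearly the same fold change for RT1-S3 (3.04e-37 against 0.00129) and RT1-N2 (2.18e-17 against 1.11e-05). A call with no filter is therefore not taken as added support. The cause was not tested.

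The CE genes were raised in 6 of 12, against 16.2% of all genes tested, with a median of 0.31. RT1-CE4 was at 22.7, 22.9 and 22.2 CPM in siNONO against 19.2, 15.7 and 13.3 CPM in siCtrl (0.50 ± 0.10; edgeR adjusted p = 0.00133). RT1-CE13 was at 4.48, 5.33 and 4.80 CPM in siNONO against 4.06, 2.99 and 3.18 CPM in siCtrl (0.52 ± 0.14; edgeR adjusted p = 0.0107). The groups did not overlap for either gene. RT1-CE12 was at 8.98, 14.9 and 14.0 CPM in siNONO against 6.22, 9.53 and 9.04 CPM in siCtrl, with replicate 1 the lowest of each group, so the groups overlapped (0.61 ± 0.17; edgeR adjusted p = 0.0146). That call ended when siNONO replicate 2 was left out (0.47; adjusted p = 0.0680), as it did when siNONO replicate 3 was (0.53; adjusted p = 0.0672). RT1-CE12 was also not called by DESeq2 (adjusted p = 0.106), the robust fit (adjusted p = 0.132) or log2(FPKM + 1) (adjusted p = 0.0530).

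The other raised CE genes also overlapped between groups. RT1-CE5 had 0.23 ± 0.08, RT1-CE16 0.29 ± 0.09 and RT1-CE3 0.45 ± 0.15 (edgeR adjusted p = 0.0341, 0.0241 and 0.0359). RT1-CE5 was no longer called without siNONO replicate 2 or 3 or siCtrl replicate 2 or 3 (adjusted p 0.0858 to 0.142). RT1-CE16 lost its call without siNONO replicate 3 or siCtrl replicate 2 or 3 (adjusted p 0.0937 to 0.121). RT1-CE5 and RT1-CE16 were not called by DESeq2 (adjusted p = 0.194 and 0.163) or the robust fit (adjusted p = 0.139 and 0.101), nor RT1-CE5 with the replicate block (adjusted p = 0.0512). Among the fits that left out a library, the RT1-CE3 call was kept only without siCtrl replicate 1 (adjusted p = 0.000624), with adjusted p 0.0707 to 0.133 in the other 5 fits. RT1-CE1, RT1-CE2, RT1-CE10, RT1-CE11, RT1-CE14 and RT1-CE15 did not pass, with log2 fold changes of 0.13 to 0.48. Of these, RT1-CE1 (0.33; adjusted p = 0.0105) and RT1-CE15 (0.83; adjusted p = 7.21e-05) passed without siCtrl replicate 1, and RT1-CE10 without siCtrl replicate 2 (0.39; adjusted p = 0.0380). RT1-CE15 was also called by limma-voom (adjusted p = 0.029), with the replicate block (0.0154), total library size (0.0358) and no filter (2.59e-05). The last of these is again not taken as added support. RT1-CE14, whose groups did not overlap, was called with total library size or FPKM (adjusted p 0.0254 to 0.0378). RT1-CE1 was called with total library size, no filter, or at least 1 FPKM in 3 libraries (adjusted p 0.0387 to 0.0453).

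Of the M genes, RT1-M3-1 was raised and RT1-M6-1 did not pass. RT1-M3-1, whose mouse counterpart H2-M3 presents N-formylated peptides of bacteria and mitochondria, was at 36.6, 37.8 and 36.1 CPM in siNONO against 33.1, 30.4 and 29.2 CPM in siCtrl. The groups did not overlap, and the difference was 0.26 ± 0.05 on the log2 scale (edgeR adjusted p = 0.00245). RT1-M6-1 was near 1 CPM at most, with 20 to 30 counts in siNONO libraries and 16 to 22 in siCtrl libraries (0.11 ± 0.28; edgeR adjusted p = 0.803). The 7 untested class I genes, RT1-M1-2, RT1-M1-4, RT1-M2, RT1-M5, RT1-O1, RT1-S2 and RT1-T24-2, had 0 to 5 counts in any library. RT1-S2 had 4, 5 and 3 counts in siNONO replicates 1, 2 and 3 and 1, 0 and 0 in siCtrl replicates 1, 2 and 3. The ratio of its scaled sums, 12 counts to 1, was 10.8 (95% exact binomial interval 1.59 to 460.0, counting error only). With no filter on low counts RT1-S2 did not pass (adjusted p = 0.0628), nor did any of the other 6.

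The make-up of the class I reads differed between the groups. The N, S, O and T24 genes took 41.1%, 40.9% and 40.4% of class I counts in siNONO replicates 1, 2 and 3, against 38.2%, 36.8% and 33.4% in siCtrl replicates 1, 2 and 3. The CE genes took 33.5%, 33.8% and 34.6% in siNONO against 35.5%, 38.0% and 39.3% in siCtrl. Neither series overlapped between groups. The A series overlapped, at 22.2% ± 0.0823 in siNONO and 22.9% ± 1.08 in siCtrl (SD, n = 3 each). These shares were not tested.

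**Figure D3:**
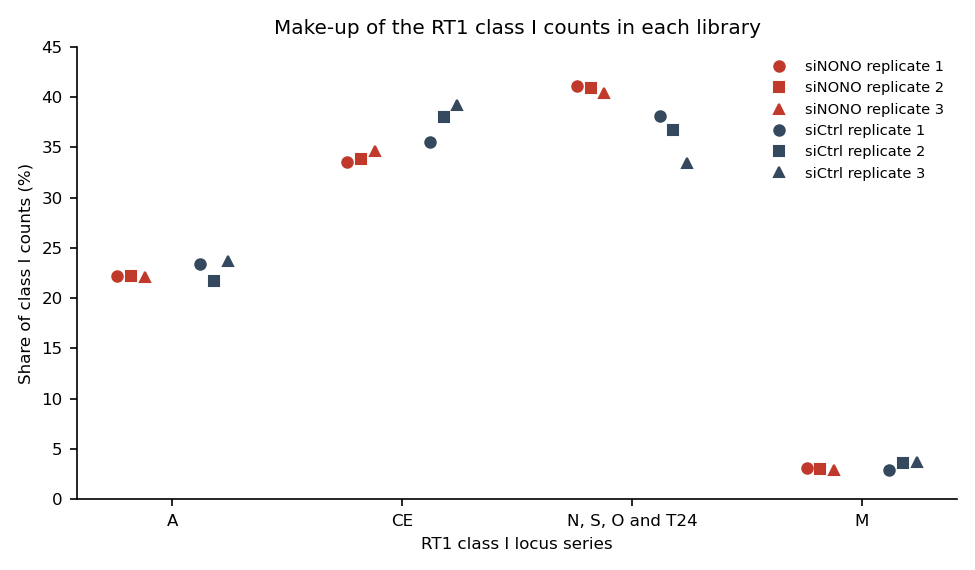
Share of all class I counts taken by each locus series in each library, in percent, with siNONO libraries left of siCtrl libraries. Symbols mark the replicate. The siNONO points of the N, S, O and T24 genes (40.4% to 41.1%) all lie above the siCtrl points, and those of the CE genes (33.5% to 34.6%) all lie below them.

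The partners of the class I heavy chain rose unequally. B2m, which encodes the invariant light chain, was by far the most abundant member. It was at 2099, 2353 and 2322 CPM in siNONO replicates 1, 2 and 3, against 2053, 1604 and 1536 CPM in siCtrl replicates 1, 2 and 3. The groups did not overlap, though siCtrl replicate 1 came close to siNONO replicate 1, and the log2 fold change was 0.38 ± 0.09 (edgeR adjusted p = 0.00357). Per length, B2m relative to the summed class I genes was 2.42, 2.56 and 2.50 in siNONO and 2.50, 2.58 and 2.67 in siCtrl, values that overlapped. A sum of FPKM over class I genes rests on the annotated lengths, so this ratio describes these files and is no count of molecules.

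The transporter's subunits differed. Tap1 was at 97.3, 92.0 and 92.1 CPM in siNONO against 65.3, 61.4 and 50.7 CPM in siCtrl, well apart (0.67 ± 0.07; edgeR adjusted p = 9.49e-06). Tap2 was at 64.6, 64.8 and 64.9 CPM in siNONO against 61.4, 56.6 and 50.9 CPM in siCtrl, a smaller difference without overlap (0.20 ± 0.06; edgeR adjusted p = 0.0160). Tap2 was not called without siNONO replicate 1 (adjusted p = 0.0571), siNONO replicate 3 (0.0537) or siCtrl replicate 3 (0.0812). The FPKM of Tap1 relative to Tap2, which form a heterodimer, was 1.36, 1.29 and 1.29 in siNONO and 0.963, 0.983 and 0.903 in siCtrl, so Tap1 was above Tap2 in each siNONO library and below it in each siCtrl library.

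Tapbp, which encodes tapasin, the bridge between TAP and class I, was at 219, 239 and 217 CPM in siNONO against 184, 152 and 135 CPM in siCtrl. It rose by 0.52 ± 0.08 on the log2 scale, with no overlap (edgeR adjusted p = 0.000287). Tapbpl, which encodes the related peptide editor TAPBPR, was at 63.2, 64.4 and 64.1 CPM in siNONO against 59.4, 56.1 and 52.3 CPM in siCtrl. It rose less, by 0.19 ± 0.05 (edgeR adjusted p = 0.00884), and was not called without siCtrl replicate 3 (0.15; adjusted p = 0.0520). Erap1, the aminopeptidase that trims peptides in the endoplasmic reticulum, overlapped between groups, at 163, 173 and 172 CPM in siNONO against 170, 157 and 156 CPM in siCtrl. It did not pass (0.07 ± 0.05; edgeR adjusted p = 0.237), except without siCtrl replicate 1 (0.11; adjusted p = 0.0495) and where libraries were scaled by total count or FPKM.

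Nlrc5, which encodes the transactivator of class I genes, showed the largest rise of any tested member. It was at 11.2, 11.6 and 10.99 CPM in siNONO replicates 1, 2 and 3, against 7.22, 5.95 and 5.28 CPM in siCtrl replicates 1, 2 and 3. The groups lay far apart, 0.88 ± 0.10 on the log2 scale (edgeR adjusted p = 2.45e-05), a 1.84-fold difference (95% interval 1.57 to 2.15). It was called in each fit that left out 1 library (0.77 to 1.01). B2m, Tap1 and Tapbp were likewise called in each of these fits.

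**Figure D4:**
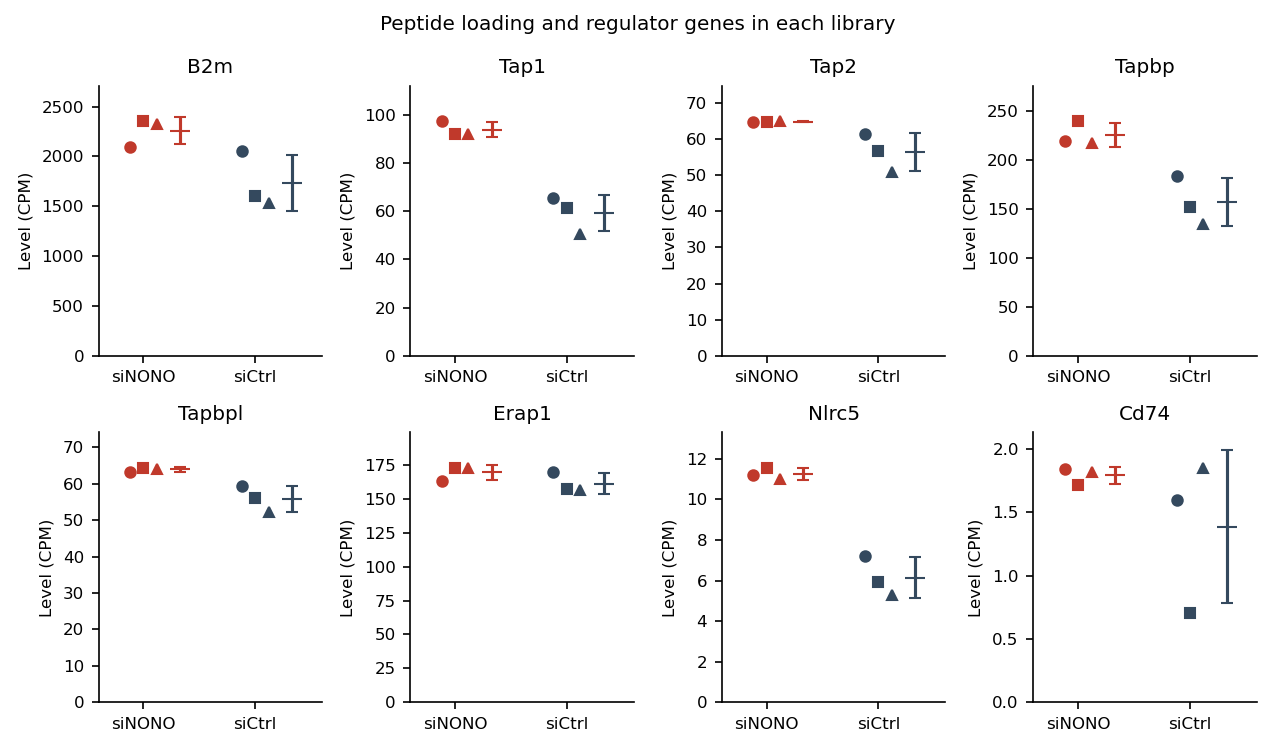
Level in CPM of the 8 tested loading and regulator genes in each library, siNONO (red) left of siCtrl (dark blue), with circles, squares and triangles for replicates 1, 2 and 3 and bars for the mean and SD beside them. All axes start at 0. B2m, Tap1, Tap2, Tapbp, Tapbpl and Nlrc5 do not overlap between groups, and Erap1 and Cd74 do.

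Class II genes were at very low levels apart from the DM pair. RT1-DMa and RT1-DMb encode the chains of the DM molecule, which exchanges the peptide of class II molecules in endosomes. RT1-DMa was at 17.8, 17.1 and 16.0 CPM in siNONO replicates 1, 2 and 3, against 22.9, 18.3 and 21.5 CPM in siCtrl replicates 1, 2 and 3. All siNONO libraries were below all siCtrl libraries, and it fell by 0.30 ± 0.08 on the log2 scale (log2 fold change -0.30; edgeR adjusted p = 0.0112). RT1-DMa was not called without siNONO replicate 3 (-0.26; adjusted p = 0.0537). RT1-DMb was at 12.4, 12.7 and 11.1 CPM in siNONO against 10.5, 10.1 and 11.6 CPM in siCtrl, which overlapped (0.17 ± 0.08; edgeR adjusted p = 0.149). The FPKM of RT1-DMa relative to RT1-DMb was 1.71, 1.6 and 1.7 in siNONO and 2.60, 2.15 and 2.20 in siCtrl, without overlap. Of the 2 tested class II genes 0 were raised by edgeR, 0 at an unadjusted p of 0.05, and 0 by DESeq2 and limma-voom. Over all genes tested 16.2% were raised by edgeR, so a count of 0 among 2 genes says little. With log2(FPKM + 0.1) 1 was raised, RT1-DMb (0.22; adjusted p = 0.0461), as it was among genes with at least 1 FPKM in 3 libraries (0.20; adjusted p = 0.0383).

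The classical class II chains were close to the limit of detection. RT1-Da and RT1-Db1 encode chains of the RT1-D molecule, and RT1-Ba and RT1-Bb those of RT1-B. RT1-Da had 6, 7 and 9 counts in siNONO replicates 1, 2 and 3 and 3, 1 and 2 counts in siCtrl replicates 1, 2 and 3. RT1-Ba had 7, 9 and 6 counts in siNONO and 3, 4 and 2 in siCtrl. The groups did not overlap for these alpha chain genes, and the ratios of the scaled sums were 3.29 for RT1-Da (95% exact binomial interval 1.29 to 9.92) and 2.19 for RT1-Ba (0.970 to 5.41). RT1-Db1 had 4, 13 and 5 counts in siNONO against 5, 1 and 1 in siCtrl, and RT1-Bb 2, 1 and 0 against 3, 1 and 4. Both beta chain genes overlapped between groups, with ratios of the scaled sums of 2.82 for RT1-Db1 (1.16 to 7.81) and 0.336 for RT1-Bb (0.0575 to 1.4). RT1-DOb, a chain of the DO molecule that restrains DM, had 0 counts in every siNONO library and 3, 0 and 0 in siCtrl. None of these 5 genes was tested, and with no filter on low counts none passed (adjusted p 0.0972 to 0.415). Counts of 3 per library correspond to 0.0879 to 0.0987 CPM in siNONO and 0.0926 to 0.112 CPM in siCtrl, which covers counting error only.

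Ciita, the transactivator of class II genes, had 5, 2 and 6 counts in siNONO replicates 1, 2 and 3 and 0, 2 and 0 in siCtrl replicates 1, 2 and 3. The groups overlapped, and the ratio of scaled sums, 13 counts to 2, was 5.83 with a 95% exact binomial interval of 1.32 to 53.2 (counting error only). With no filter it did not pass (adjusted p = 0.108). Cd74, the invariant chain that guides class II molecules to endosomes, was at 1.84, 1.72 and 1.82 CPM in siNONO against 1.601, 0.704 and 1.85 CPM in siCtrl. Its groups overlapped and it did not pass (0.36 ± 0.26; edgeR adjusted p = 0.328).

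**Figure D5:**
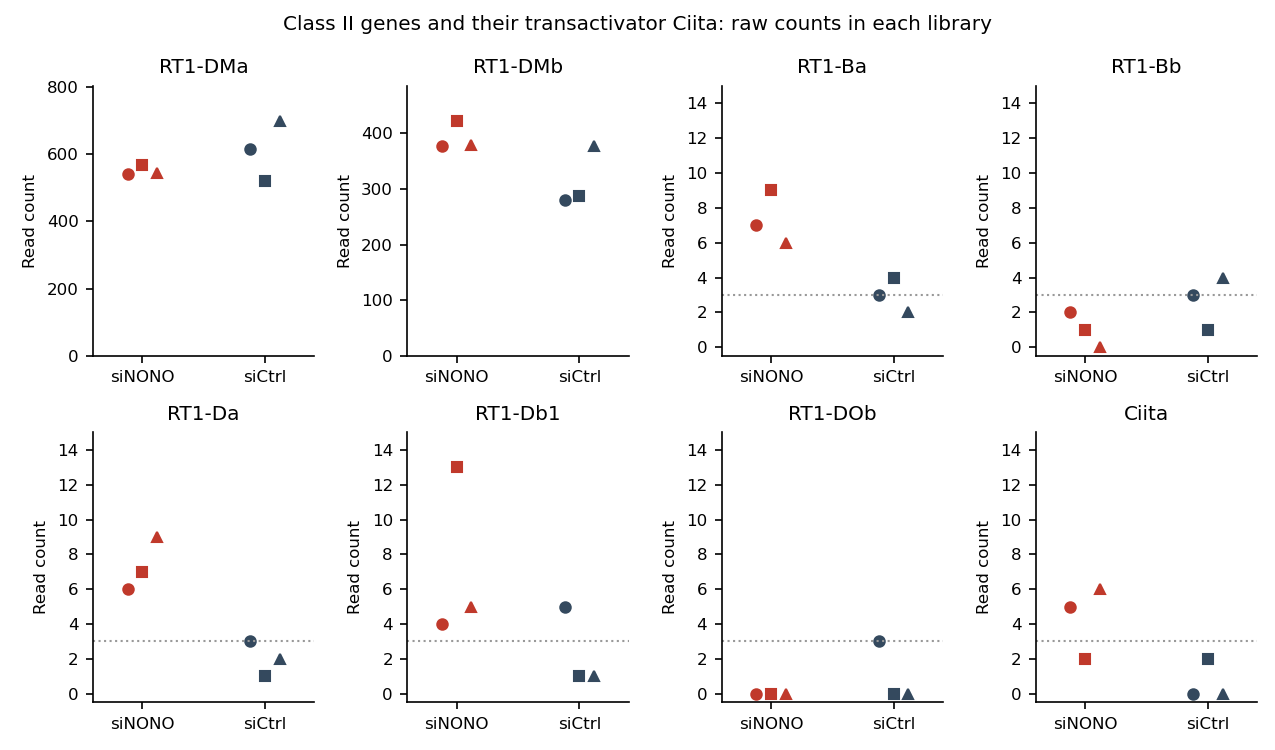
Raw read counts, not scaled for depth, of the 7 class II genes and Ciita in each library, siNONO (red) left of siCtrl (dark blue), with circles, squares and triangles for replicates 1, 2 and 3. The dotted line marks 3 counts in the panels of untested genes. RT1-DMa and RT1-DMb have 281 to 698 counts and the other genes 13 or fewer in any library.

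Macrophages and dendritic cells are the usual bearers of class II, so their markers are given beside it. Of 7 tested markers 0 were raised and 3 lowered, with a median log2 fold change of -0.16, against 16.2% and 15.9% of all genes tested. Lowered were Adgre1 (-0.50, at 22.0 and 31.1 CPM in siNONO and siCtrl), Cd83 (-0.45) and Csf1r (-0.30), and the other 4 did not pass. DESeq2, limma-voom and an unadjusted p of 0.05 also gave 0 raised, and 1 was raised without siCtrl replicate 3. Their summed level was 265 to 276 CPM in siNONO libraries and 278 to 302 CPM in siCtrl libraries. None of the 8 measured markers was at 0 in every library, and Flt3 was the lowest (0.0609 and 0.0344 CPM in siNONO and siCtrl). Of the lymphocyte markers, Cd79a, Cd3d and Nkg7 were below 0.1 CPM in both groups, and Cd4, which rat macrophages also carry, was lowered (17.6 and 29.4 CPM in siNONO and siCtrl). The part of such cells in the levels of class II genes was not tested.

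The immunoproteasome genes, which shape the peptides offered to class I, rose with them. In the list of peptide supply genes 4 of 9 were raised and 2 lowered (median 0.13), against 16.2% and 15.9% of all genes tested. Psmb9 was at 86.0, 90.6 and 84.7 CPM in siNONO against 67.2, 49.6 and 44.0 CPM in siCtrl (0.71 ± 0.11; edgeR adjusted p = 0.000188). Psmb10 (0.54 ± 0.09) and Psmb8 (0.53 ± 0.08) also rose, both without overlap. The subunit genes of the proteasome activator PA28 moved in opposite directions. Psme1 was raised (0.22 ± 0.07; edgeR adjusted p = 0.0227), with groups that overlapped, at 240 and 206 CPM in siNONO and siCtrl. Psme2 was lowered (-0.20 ± 0.07), at 112 and 129 CPM. Psme2 was not called without siNONO replicate 1 or 3 or siCtrl replicate 1 (adjusted p 0.0704 to 0.144). The cytosolic peptidase gene Thop1 was lowered too (-0.18 ± 0.05). It was not called without siNONO replicate 1 or 3 or siCtrl replicate 2 or 3 (adjusted p 0.0564 to 0.0759). With total library size or FPKM neither Psme2 (adjusted p 0.0726 to 0.129) nor Thop1 (adjusted p 0.0799 to 0.0944) was called, and with the replicate block Psme2 was not (adjusted p = 0.0675).

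Of the chaperones that fold class I heavy chains, Calr (calreticulin) was raised (0.14 ± 0.05), Canx (calnexin) lowered (-0.13 ± 0.04), and Pdia3 (0.09 ± 0.04; edgeR adjusted p = 0.0985) did not pass. Calr lost its call without siNONO replicate 1 or 2 or siCtrl replicate 2 or 3 (adjusted p 0.0723 to 0.102), and Canx without the same libraries (adjusted p 0.0601 to 0.107). Neither was called with the replicate block (adjusted p = 0.0964 for Calr and 0.108 for Canx), nor Canx with total library size or FPKM (adjusted p 0.157 to 0.189). Among 10 genes for factors that act at MHC promoters, 3 were raised and 0 lowered (median 0.02), against 16.2% and 15.9% of all genes tested. DESeq2, limma-voom and an unadjusted p of 0.05 also gave 0 lowered. Irf1, which encodes an interferon-induced activator of class I genes, rose by 0.32 ± 0.06 (edgeR adjusted p = 0.000685). Rfxank, a subunit of the RFX complex that binds MHC promoters, had 0.25 ± 0.08 and was called in 1 of the 6 fits that left out a library, the one without siCtrl replicate 1 (adjusted p 0.0593 to 0.124 in the others). DESeq2 (adjusted p = 0.0814) and the replicate block (adjusted p = 0.0692) did not call Rfxank.

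Among 8 genes of class II antigen processing, 4 were raised and 2 lowered (median 0.12), against 16.2% and 15.9% of all genes tested. Lgmn, the endosomal asparagine-specific protease, had the largest change of any pathway gene examined here. It was at 461, 481 and 452 CPM in siNONO replicates 1, 2 and 3, against 202, 173 and 210 CPM in siCtrl, far apart (1.25 ± 0.06; edgeR adjusted p = 8.74e-09). Marchf1, a ubiquitin ligase that removes class II from the surface, had 0.34 ± 0.10 and Ctss, the protease that cleaves the invariant chain, 0.19 ± 0.05. Neither call held throughout: Marchf1 was not called without siNONO replicate 2 or 3 or siCtrl replicate 3 (adjusted p 0.0713 to 0.0879), nor Ctss without siNONO replicate 1 or 2 or siCtrl replicate 2 (adjusted p 0.0525 to 0.0713). The protease gene Ctsd (-0.20 ± 0.05) and the thiol reductase gene Ifi30 (-0.19 ± 0.05) were lowered. Ctsd was not called without siNONO replicate 1 or 3 or siCtrl replicate 3 (adjusted p 0.0514 to 0.0666), nor Ifi30 without siNONO replicate 1 or 3 (adjusted p 0.0716 and 0.0744), and neither was called on FPKM (adjusted p 0.0567 to 0.0737 for Ctsd and 0.0604 to 0.0717 for Ifi30).

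Of 5 tested class I-like genes outside the RT1 symbols, 0 were raised by edgeR, DESeq2 or limma-voom, or at an unadjusted p of 0.05. By edgeR 2 were lowered (median -0.20). Over all genes tested 16.2% were raised and 15.9% lowered, so a count of 0 among 5 genes says little. Cd1d1, which presents lipids to natural killer T cells, was at 18.3, 20.1 and 18.1 CPM in siNONO against 29.0, 25.9 and 27.1 CPM in siCtrl, with no overlap (-0.54 ± 0.06; edgeR adjusted p = 2.36e-05). Fcgrt, the heavy chain of the neonatal Fc receptor, which also pairs with beta-2 microglobulin, had -0.20 ± 0.05 (edgeR adjusted p = 0.00554). Of 6 tested co-stimulatory and adhesion genes, 2 were raised and 1 lowered (median 0.21). Cd274, which encodes the T cell inhibitor PD-L1, was at 16.4, 16.3 and 16.3 CPM in siNONO against 11.9, 12.8 and 11.8 CPM in siCtrl (0.43 ± 0.07; edgeR adjusted p = 0.000262). The adhesion molecule gene Icam1 rose by 0.29 ± 0.06 (edgeR adjusted p = 0.00168), and the co-stimulator gene Cd80 fell by 0.45 ± 0.10 on the log2 scale (log2 fold change -0.45; edgeR adjusted p = 0.00421).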

How the data were processed

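Poly(A)-selected RNA from 3 siNONO and 3 siCtrl libraries was sequenced with a stranded kit, per the labels' protocols. HISAT2, edgeR and genome build mRatBN7.2 are named in the submitters' processing notes; the sources used here give no versions, counting tool or strand setting. The deposited count table holds raw read counts for 21378 genes. The deposited FPKM table holds 21081 of them, scaled by the authors to gene length and library size, and 0 columns belonged to other samples. Groups follow the titles. FPKM served for comparisons between genes, implied lengths (count / FPKM / total) and alternatives.

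Counts were filtered with filterByExpr (14412 genes kept), TMM-scaled and compared with edgeR 4.0.16 (quasi-likelihood, two-sided, Benjamini-Hochberg over all genes tested, threshold 0.05) in R 4.3.3. SE is the log2 fold change over the square root of F. CPM and FPKM are given with the SD over 3 libraries. Alternatives used limma 3.58.1 and DESeq2 1.42.0, other scalings and filters, FPKM, a replicate block and leaving out each library.

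Members, lists and naming rule (all tested members, and up to 3 rises and 3 falls per list) were chosen with earlier results of these data known. Psme1 was named outside this rule, beside Psme2. Replicates differed by more than sampling noise (chi-square per degree of freedom 3.11 to 7.34). Azgp1, Xcr1, Ms4a1 and Cd3e were listed and are not analysed here. Exact binomial intervals and floors cover counting error only. The interval of Nlrc5 comes from the SE of the edgeR fit and so covers the spread between libraries. Some genes of the lists are not reported here by name.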

Additional observations from a re-analysis of the deposited data

How the results depend on the processing

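Of the 33 tested members, 12 were called in every one of the 18 alternatives that tested them. For single genes named in the text, 850 values kept direction and side of the threshold, 90 lost the call, 26 gained one and 3 changed sign. The sign changes were RT1-CE10 without siCtrl replicate 3 (-0.0414) and RT1-M6-1 without siNONO replicate 2 (-0.0875) and without siCtrl replicate 2 (-0.0029), none of them called. Over all fits without 1 library RT1-CE10 ran from -0.0414 to 0.3921 and RT1-M6-1 from -0.0875 to 0.2558. The robust fit raised 9 class I genes, against 15. Class II genes raised were 1 with log2(FPKM + 0.1) and 1 with at least 1 FPKM in 3 libraries, against 0, and lowered members ranged from 0 to 1 when 1 library was left out. Genes lowered in the whole table, 2292 by the count test, were 1546 with log2(FPKM + 1), 1566 with log2(FPKM + 0.1), and 1424 with log2(FPKM + 1) restricted to genes with at least 1 FPKM in 3 libraries. With total library size the split of all calls was 65.5% raised (3174 to 1673), against 50.5% (2338 to 2292), and 26 members were raised. The summed class I ratio was 1.311 to 1.395 under other scalings and FPKM. The cause of these changes was not tested.

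Replicate numbers did not pair the samples: same-numbered libraries had correlations of deviations of -0.105, -0.179 and -0.00121, and 0 libraries correlated best with their own number. With the number as a replicate block, 22 members and 16 class I genes were raised, and 1894 and 1863 genes in all were raised and lowered. Depth limits the classical class II genes and Ciita, at 13 counts or fewer in any library.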
